A study of Mus musculus with 9 samples.

Results

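The genes described here are 36 genes of mitosis and chromosome segregation, listed by function and found by symbol among the 18423 genes of a deposited expression table. All 36 were in the table. The study sequenced poly(A) RNA from glands of the mouse stomach corpus, with 3 libraries for each of 3 genotypes. Where a stomach had tumours the glands came from that area of the corpus, otherwise from the equivalent area of normal stomach. Arid1a_Het mice carried Atp4bCre, Rosa26NICD and Arid1aflox/+, that is, Cre recombinase under control of a parietal cell proton pump gene, the Notch intracellular domain inserted at Rosa26, and 1 Arid1a allele flanked by loxP sites. Ctrl mice carried Atp4bCre and Rosa26NICD with no loxP-flanked Arid1a in the label, and so share both transgenes with Arid1a_Het. WT mice were wild type. Atp4b marks parietal cells, so recombination is set by that cell type while the RNA comes from whole glands. The labels give no ages, and whether replicates are different mice is not stated. P-values therefore reflect only how these libraries vary, and that variation may be technical. The accession of Arid1a_Het 3 is not contiguous with the other 8.

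In mitosis the kinase CDK1 with its B-type and A-type cyclins starts chromosome condensation and spindle assembly, and Aurora and Polo-like kinases shape the spindle. Kinetochores built on centromeric chromatin attach chromosomes to microtubules, the spindle checkpoint holds the anaphase promoting complex back until attachment is complete, and kinesins and midzone proteins then drive separation and cytokinesis. RNAs of this set peak together late in the cell cycle in dividing cells, and in corpus glands division is normally concentrated in the isthmus between the pit and neck regions.

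Many genes of this class carry a cell cycle genes homology region (CHR) near the start of transcription, which in mammals is bound by the DREAM and MuvB complexes with B-MYB and FOXM1, and CCAAT boxes, which NF-Y binds. Promoter windows from RefSeq on GRCm38.p6, from 250 bases before to 50 bases after the annotated start, were found by symbol for 31 of the 36 genes. Incenp, Ccna2, Aurkb, Tpx2 and Kif20a had none. The windows shown are those of Kif23, which was called in the tests below, of Mki67 and Cenpa, which departed most from the other members after Kif23, and of the mitotic kinases Cdk1 and Plk1. They lie at chr9:61946750-61947049 (minus strand), chr7:135716330-135716629 (minus strand), chr5:30666636-30666935 (plus strand), chr10:69352863-69353162 (minus strand) and chr7:122159185-122159484 (plus strand). Capitals mark the CHR letters TTTGAA and the letters CCAAT, searched on both strands, so that ATTGG and TTCAAA are the same motifs read on the other strand.
Kif23: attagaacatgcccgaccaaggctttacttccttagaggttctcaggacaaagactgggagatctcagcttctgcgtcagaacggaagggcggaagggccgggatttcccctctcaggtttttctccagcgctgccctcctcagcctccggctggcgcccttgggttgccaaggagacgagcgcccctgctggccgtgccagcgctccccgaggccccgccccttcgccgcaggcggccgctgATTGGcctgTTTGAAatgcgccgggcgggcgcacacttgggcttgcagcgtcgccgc
Mki67: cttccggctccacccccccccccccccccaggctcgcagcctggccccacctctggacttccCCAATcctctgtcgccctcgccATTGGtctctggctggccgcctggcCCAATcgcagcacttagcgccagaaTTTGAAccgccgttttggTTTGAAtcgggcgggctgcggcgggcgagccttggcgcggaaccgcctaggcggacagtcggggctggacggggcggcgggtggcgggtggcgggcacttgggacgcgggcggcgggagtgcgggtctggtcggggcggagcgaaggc
Cenpa: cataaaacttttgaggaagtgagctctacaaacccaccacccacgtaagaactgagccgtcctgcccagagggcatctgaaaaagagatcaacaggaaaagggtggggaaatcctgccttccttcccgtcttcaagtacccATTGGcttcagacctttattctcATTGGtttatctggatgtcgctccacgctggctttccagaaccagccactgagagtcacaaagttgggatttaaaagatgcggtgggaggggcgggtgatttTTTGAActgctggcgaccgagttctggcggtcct
Cdk1: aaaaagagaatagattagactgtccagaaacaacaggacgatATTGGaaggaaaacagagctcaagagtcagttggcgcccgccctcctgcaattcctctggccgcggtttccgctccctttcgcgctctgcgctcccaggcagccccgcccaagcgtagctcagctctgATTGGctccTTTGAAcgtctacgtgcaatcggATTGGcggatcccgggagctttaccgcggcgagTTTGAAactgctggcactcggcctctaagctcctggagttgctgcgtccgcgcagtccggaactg
Plk1: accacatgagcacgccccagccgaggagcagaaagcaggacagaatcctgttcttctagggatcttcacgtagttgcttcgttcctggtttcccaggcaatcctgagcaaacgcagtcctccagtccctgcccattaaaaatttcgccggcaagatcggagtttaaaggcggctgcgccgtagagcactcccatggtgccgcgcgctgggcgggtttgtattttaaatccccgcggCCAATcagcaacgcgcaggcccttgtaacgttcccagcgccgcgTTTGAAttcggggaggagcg

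In these windows Kif23 held a CCAAT 7 bases before the start and TTTGAA 2 bases after it, counted to the first base of the match. Cenpa and Plk1 held TTTGAA 16 and 30 bases after the start, and Mki67 held it at positions -116 and -98 from it. TTTGAA was present in 25 of the 31 windows (80.7%), against 18.1% of the windows of all 27025 genes in the table of promoters. The variant TTCGAA was present in 3 windows (9.68%, against 1.57% of all), CCAAT in 24 (77.4%, against 37.9%), and at least 2 copies of CCAAT in 17 (54.8%, against 12.2%). In 23 of the 31 windows (74.2%, against 4.92% of all) a TTTGAA lay within 50 bases of the start on either side, a distance chosen after the positions were seen. Matches shared bases in the windows of Cdca8 and Ube2c, and each match is a description of the letters only. Ccnb1, Nusap1, Birc5, Cenpe and Nuf2 held neither form of the CHR letters in this window.

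**Figure D1:**
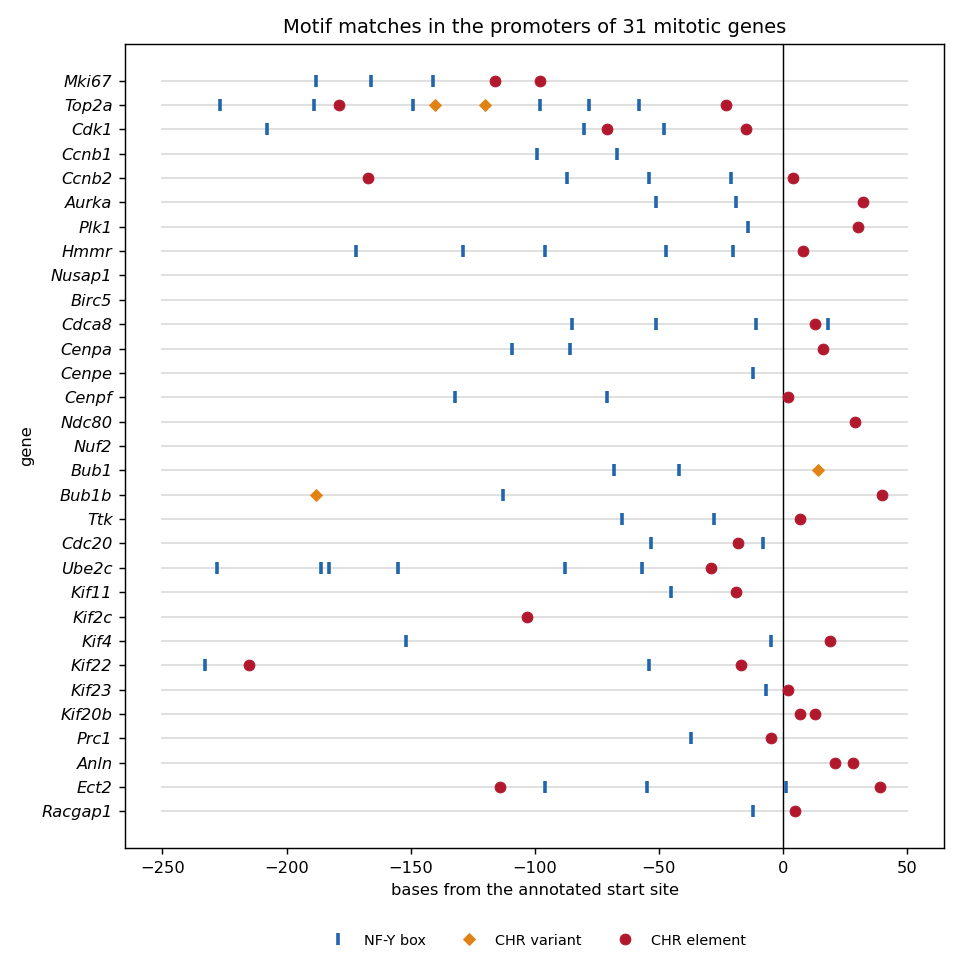
Positions of motif matches in the promoter windows of 31 mitotic genes, in bases from the annotated start (vertical line), each grey line running from 250 bases before to 50 bases after it. Red circles are CHR matches, orange diamonds its variant and blue bars NF-Y boxes; CHR matches lay within 50 bases of the start in 23 of the 31 genes.

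The libraries held 22651385 to 29478481 reads, worked out from the deposited values. Arid1a, the targeted gene, had 8.94, 5.897 and 6.96 FPKM in Arid1a_Het, against 14.9, 13.3 and 16.2 FPKM in Ctrl and 13.5, 7.79 and 11.97 FPKM in WT, so every Arid1a_Het library lay below every Ctrl library, while WT 2 lay among the Arid1a_Het values. Here and below, FPKM (fragments per kilobase of transcript, scaled to mapped reads) are given in the order of libraries 1, 2 and 3. The gland origin was visible in the epithelial genes Epcam, at 121 to 421 FPKM, and Krt8, at 1240 to 2596 FPKM, in the 9 libraries, while 17 leukocyte genes summed to 5.05 to 50.8 FPKM. WT 2 and Arid1a_Het 2 stood apart in their chief cell sums, though not in every chief cell gene. The 4 chief cell genes summed to 81655 FPKM in Arid1a_Het 2 and 81469 FPKM in WT 2, against 5548 to 35535 FPKM in the other 7 libraries. Nearly all of this was Pgc, which encodes the zymogen pepsinogen C and made up 17.9% of the FPKM total of Arid1a_Het 2 and 16.5% of that of WT 2, against 1.49% to 8.39% elsewhere. Without Pgc the other chief cell genes summed to 1351 FPKM in Arid1a_Het 2 and 4914 FPKM in WT 2, against 62.8 to 1339 FPKM elsewhere. Of the 4914 FPKM in WT 2, Chia1 made up 4798 FPKM. Pga5 was highest in Ctrl 2. Bhlha15 was highest in Arid1a_Het 2 (8.67 FPKM), but in WT 2 (3.84 FPKM) it lay below Ctrl 2 (6.21 FPKM) and WT 3 (5.51 FPKM). The lowest median-ratio scaling factors were 0.851 for Arid1a_Het 2 and 0.765 for WT 2.

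Mitotic genes were present in all 9 libraries and followed a shared pattern from library to library. Each of the 36 had 48 to 7434 reads in each library. The mean level over the 36 genes, on the log2(FPKM + 1) scale, was 3.27, 2.39 and 3.15 in Arid1a_Het libraries, 3.59, 3.58 and 3.50 in Ctrl libraries, and 3.45, 1.40 and 2.75 in WT libraries. Group means were 2.94 ± 0.47 in Arid1a_Het, 3.56 ± 0.05 in Ctrl and 2.53 ± 1.04 in WT (SD, n = 3 each). The 3 Ctrl libraries were thus close together and highest on average, WT spanned the widest range, and Arid1a_Het lay between with a low library of its own.

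Summed over the set, the 36 genes took 1672, 766 and 1474 RPM (reads scaled to a common library total) in Arid1a_Het libraries, 2214, 2108 and 2091 in Ctrl libraries, and 2020, 288 and 1125 in WT libraries. WT 2 was the lowest of the 9 libraries for all 36 genes. Arid1a_Het 2 was the second lowest for 31 of them and WT 3 for the other 5. The highest library was Ctrl 2 for 16 genes, WT 1 for 8, Ctrl 3 for 7 and Ctrl 1 for 5, and never an Arid1a_Het library. None of these ranks was counted for all genes. The level over all tested genes was also lowest in WT 2 (2.9961) and next in Arid1a_Het 2 (3.1155), against 3.2902 to 3.4629 elsewhere. Low ranks in WT 2 and Arid1a_Het 2 are therefore not shown to be particular to mitotic genes.

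Both libraries lowest in mitotic RNA, Arid1a_Het 2 and WT 2, had the highest chief cell sums. Besides the chief cell sums above, the 9 parietal genes summed to 1428, 5665 and 603 FPKM in Arid1a_Het, 411, 1428 and 892 FPKM in Ctrl, and 2792, 14276 and 6668 FPKM in WT. The parietal sum of WT 2 was the highest of all libraries, and none of the parietal or chief cell genes was at 0 in any library. The 13 pancreatic acinar genes summed to 12767 FPKM in WT 2, 11719 FPKM in WT 3 and 8820 FPKM in Arid1a_Het 2, against 832 to 5317 FPKM elsewhere. In the same libraries the 7 squamous forestomach genes had their lowest sums, 96.7 FPKM in WT 2, 46.3 FPKM in WT 3 and 235.9 FPKM in Arid1a_Het 2. Elsewhere these summed to 277 to 1009 FPKM, with 453 FPKM in WT 1. The part of cell makeup in the mitotic levels was not tested, and in glands analysed in bulk, fewer dividing cells and less mitotic RNA per cell cannot be told apart. After median-ratio scaling the mean level was 3.41, 3.42 and 3.41 in Ctrl 1, 2 and 3.

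**Figure D2:**
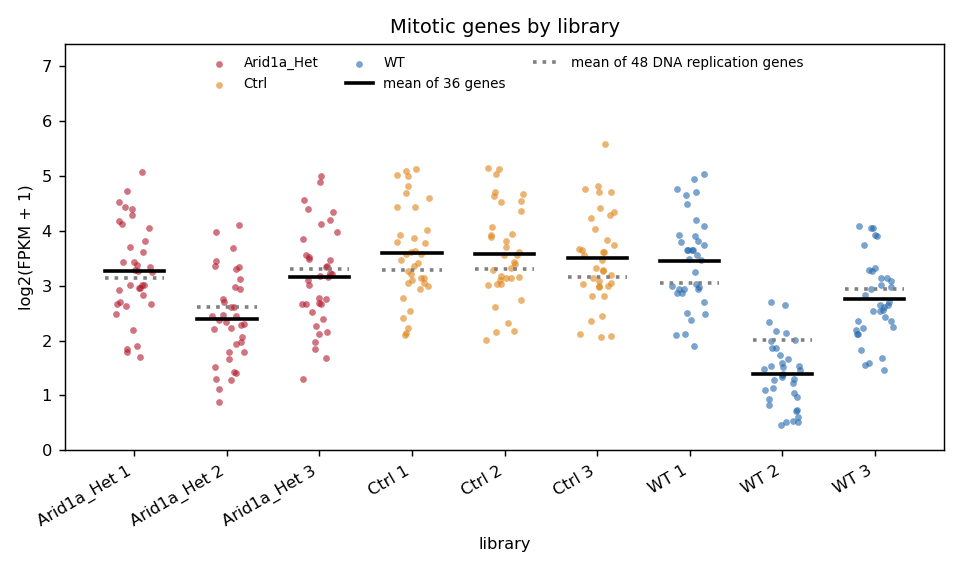
Levels of the 36 mitotic genes in each library as log2(FPKM + 1), each point a gene (spread sideways for visibility), with the black line at their mean and the dotted line at the mean of 48 DNA replication genes. WT 2 (mean 1.40) and Arid1a_Het 2 (2.39) were lowest, and the 3 Ctrl libraries lay between 3.50 and 3.59.

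The spread within groups was largest in WT and smallest in Ctrl. Across the 36 genes the median coefficient of variation was 34.3% in Arid1a_Het, 7.57% in Ctrl and 73.3% in WT. Within WT, the mean of WT 1 and WT 3 was above WT 2 by a factor of 1.75 for Cenpa to 14.6 for Mki67, with a median of 5.04. Within Arid1a_Het, the mean of libraries 1 and 3 was above library 2 by 1.38 for Ccnb2 to 3.21 for Kif23, with a median of 1.95.

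**Figure D3:**
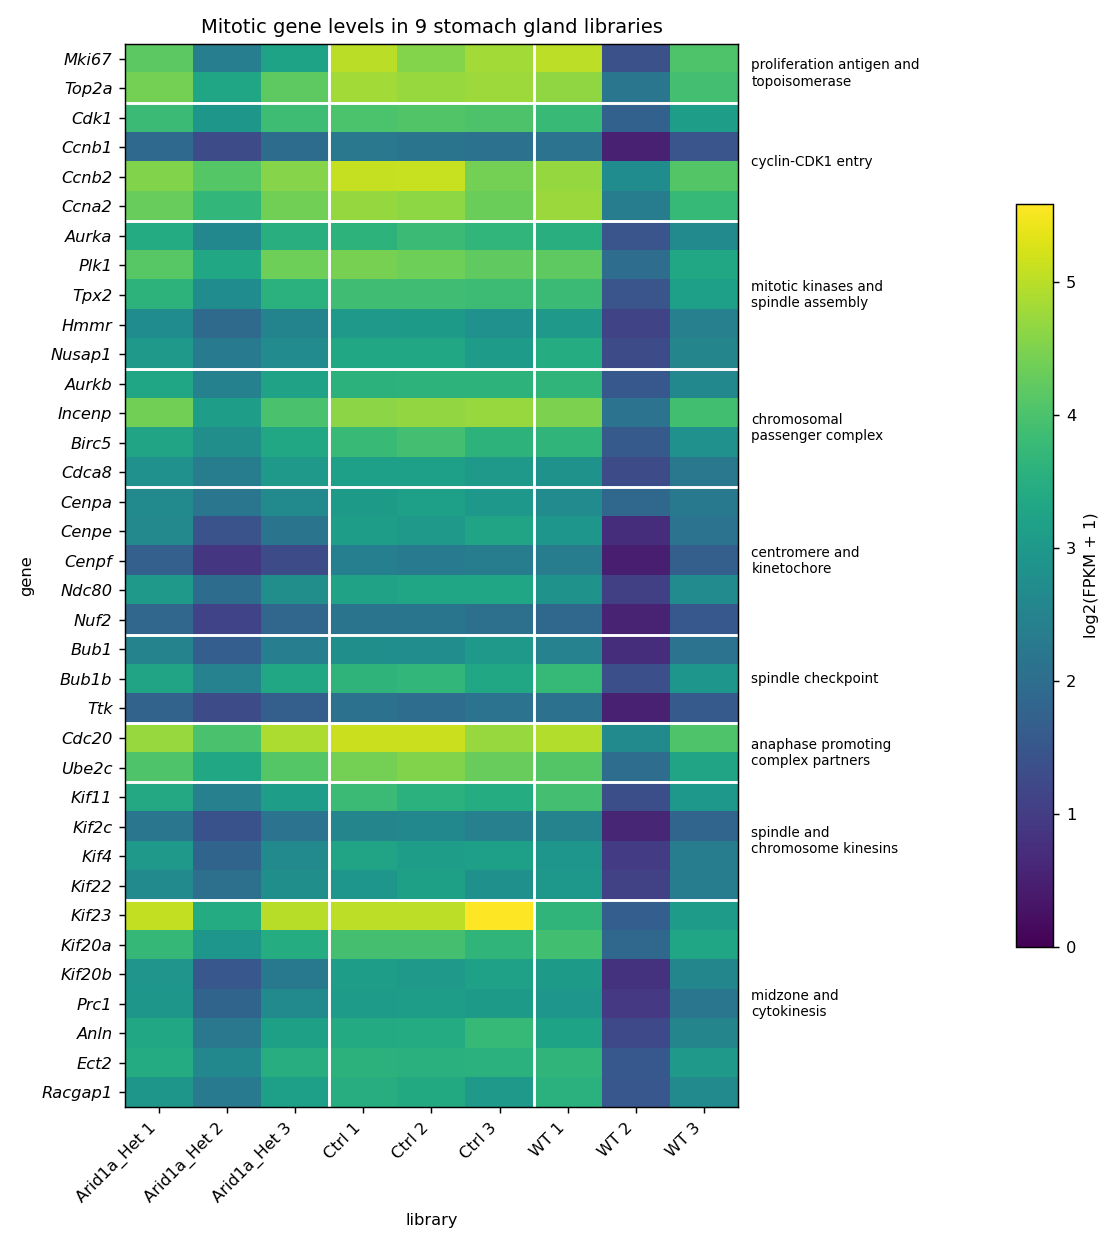
Heat map of log2(FPKM + 1) for each mitotic gene (rows, by role) in each library (columns, with white lines between Arid1a_Het, Ctrl and WT). The column of WT 2 is darkest in every row, and the Kif23 row is brightest in Ctrl 3, at 46.9 FPKM.

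Ctrl against WT compares glands that carry both Atp4bCre and the activated Notch transgene with wild-type glands. Parts of Cre, of the Notch domain and of any difference in the area sampled cannot be told apart here. The one mitotic gene that passed was Kif23, the motor of the centralspindlin complex that bundles midzone microtubules for cytokinesis. Kif23 had 31.4, 31.5 and 46.9 FPKM in Ctrl, against 11.6, 2.16 and 7.48 FPKM in WT. Every Ctrl library was above every WT library, and the group means were 36.6 ± 8.93 FPKM in Ctrl and 7.07 ± 4.71 FPKM in WT (SD, n = 3 each), a ratio of 5.18. The log2 fold change (log2FC) is a difference of log2(FPKM + 1), so that changes of weakly expressed genes are understated. For Kif23 it was 2.41 (SE 0.55, limma, Benjamini-Hochberg adjusted p = 0.0267 over all genes tested).

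Of the 36 genes, 1 was called higher and 0 lower in Ctrl than in WT at an adjusted p under 0.05, where 7.01% and 3.04% of the 11209 genes tested were called. At an unadjusted p under 0.05, 17 were higher and 0 lower, against 23.7% and 8.44% of all genes. In 17 of 36 (47.2%) every Ctrl library was above every WT library, against 33.5% of all genes. All 36 log2FC were positive, from 0.67 to 2.41, with a median of 1.02, while the median of all tested genes was 0.24, and the ratios of group means ran from 1.49 to 5.18 with a median of 1.87. Markers of several gland cell types moved in the same comparison: 4 of 9 parietal genes, 2 of 5 pit mucous genes (Psca and Muc5ac), 3 of 6 enteroendocrine genes (Ghrl, Sst and Chga) and 1 of 3 tuft cell genes (Dclk1) were called lower in Ctrl, and the epithelial genes Epcam and Krt18 were called higher. Outside these lists, 1 of 5 tested forestomach genes (Sprr1a) and 1 of 7 tested leukocyte genes (Itgax) were called higher in Ctrl. Itgax met the filter through no WT library, so its test supports nothing. The part of all these markers in the mitotic differences was not tested. By library, WT 1 was above the lowest Ctrl library in 19 genes and above the highest in 8, whereas WT 3 was above the lowest Ctrl library in 0 genes. The same counts were not made for all genes.

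The call of Kif23 was lost without any of Ctrl 1, Ctrl 2, Ctrl 3, WT 2 or WT 3 (adjusted p 0.0698, 0.0653, 0.111, 0.0749 and 0.0631), without Ctrl 1 and Arid1a_Het 3 together (0.0677) and with no filter on low values (0.0627). The count of members called higher was 13 without WT 1 (all genes 6.10%), 2 without Arid1a_Het 2 (all genes 9.56%), and 9 with the replicate number as a block (all genes 16.1%). Besides Kif23, the block called Cenpa, Anln, Bub1, Cenpe, Ube2c, Kif4, Cdca8 and Cdk1. Without WT 2 the median log2FC was 0.47, against 0.11 for all genes. Scaling moved the median of all genes by over 0.1, to 0.01 with median-ratio scaling, and relative to that median the members' median was 0.79 as deposited and 0.78 with that scaling. Under that scaling 10 of the 36 genes had groups that did not overlap, against 20.3% of all genes.

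**Figure D4:**
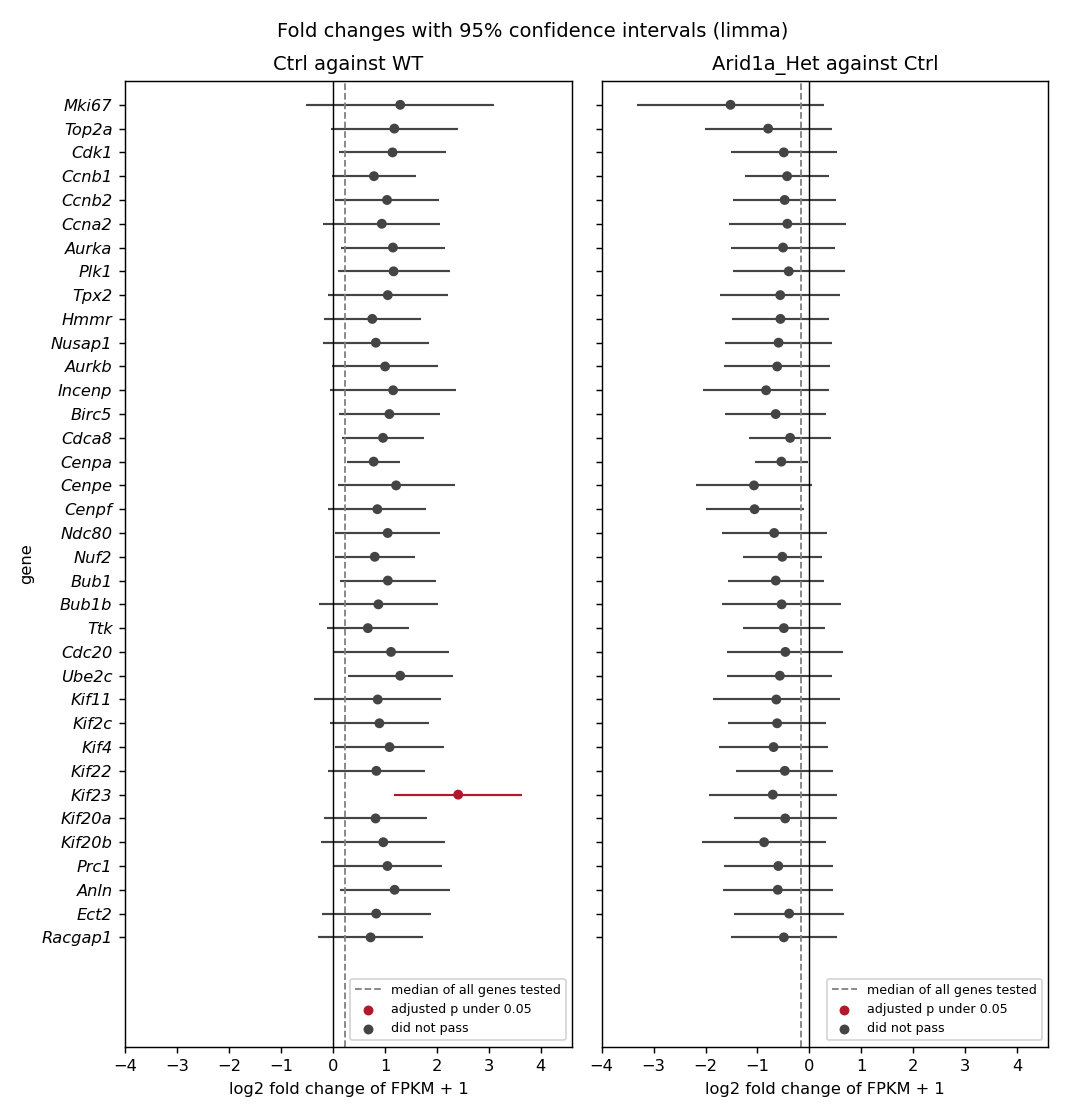
Log2 fold changes of FPKM + 1 for the 36 mitotic genes (points) with 95% confidence intervals from limma (lines), for Ctrl against WT (left) and Arid1a_Het against Ctrl (right). The dashed lines are the medians of all genes tested, 0.24 and -0.16; Kif23 (red, left) was the one gene past the threshold.

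Arid1a_Het against Ctrl asks what differs when an Arid1a allele is floxed on top of both transgenes. No mitotic gene passed in this comparison. Mki67, which encodes the Ki-67 antigen that coats mitotic chromosomes, had the largest difference, with 17.05, 4.21 and 8.43 FPKM in Arid1a_Het, against 30.99, 22.3 and 26.99 FPKM in Ctrl. All 3 Arid1a_Het libraries were below all 3 Ctrl libraries, with a ratio of means of 0.370 and a log2FC of -1.52 (SE 0.80, limma adjusted p = 0.474).

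Across the set, 0 of 36 genes were called higher and 0 lower, where 0% and 0.00892% (1 gene) of the 11209 tested were called. At an unadjusted p under 0.05 in limma, 2 members were lower, Cenpf and Cenpa, and 0 higher, against 10.5% and 1.15% of all genes. No member was called in this comparison by limma voom on reads. All 36 log2FC were negative, from -1.52 to -0.37, with a median of -0.57, while the median of all tested genes was -0.16. In 27 of 36 genes (75.0%) every Arid1a_Het library was below every Ctrl library, against 22.2% of all genes. Taken by library, Arid1a_Het 1 was below the lowest Ctrl library in 32 genes, Arid1a_Het 2 in 36 and Arid1a_Het 3 in 29. These counts by library were not made for all genes. The ratios of group means, Arid1a_Het over Ctrl, ran from 0.370 to 0.779 with a median of 0.654.

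Without Arid1a_Het 2 the median log2FC was -0.33, against -0.09 for all genes, and all 36 values stayed negative. With median-ratio scaling the members' median was -0.37, with all genes at 0.03, and 19 of the 36 genes had groups that did not overlap, against 9.77% of all genes. The same Ctrl libraries enter this comparison and that with WT, so the values of both are not independent. An exact two-sided permutation test on 3 against 3 libraries cannot give a p below 0.1, so none is given for single genes.

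Arid1a_Het against WT, which compares glands with both transgenes and a floxed Arid1a allele with wild-type glands, showed no member past the threshold. Parts of these changes and of the area sampled cannot be told apart here either. Kif23 came closest, with 32.7, 9.89 and 30.8 FPKM in Arid1a_Het, against 11.6, 2.16 and 7.48 FPKM in WT. Arid1a_Het 2 lay within the WT range while the other Arid1a_Het libraries lay above it, and the log2FC was 1.70 (SE 0.55, limma adjusted p = 0.141). Kif23 passed with the replicate number as a block (limma adjusted p 0.0299), a pairing that the Arid1a_Het libraries did not all follow. It also passed without Arid1a_Het 2 (0.0334) and without both Arid1a_Het 2 and WT 2 (0.0228). Of the 36 genes, 0 were called higher and 0 lower, where 2.06% and 0.687% of all genes were called. At an unadjusted p under 0.05 the count was 1 higher (Kif23) and 0 lower, against 9.81% and 7.38% of all genes, and limma voom called 0.

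The log2FC against WT was positive for 34 of the 36 and negative for Mki67 (-0.22) and Cenpf (-0.20). Its median was 0.38, with all genes at 0.02. In 0 genes did the groups fail to overlap, against 10.6% of all genes on the higher side and 8.57% on the lower. The direction rested on WT 2: without it 9 log2FC were positive and 27 negative, with a median of -0.16, and without WT 2 and Arid1a_Het 2 together 23 were positive and 13 negative, with a median of 0.11.

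By role, the proliferation antigen Mki67 had 31.8, 1.62 and 15.5 FPKM in WT, so that WT 1 was above all Ctrl libraries, and its log2FC in Ctrl against WT was 1.29 (adjusted p 0.273). Top2a, the topoisomerase that untangles sister chromatids, had 20.4, 8.82 and 17.3 FPKM in Arid1a_Het, 27.1, 25.2 and 26.2 FPKM in Ctrl and 24.2, 3.54 and 14.1 FPKM in WT. Every Ctrl library of Top2a was above all other libraries. Its log2FC was 1.18 in Ctrl against WT (adjusted p 0.166) and -0.79 in Arid1a_Het against Ctrl (adjusted p 0.559).

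Of the genes that start mitosis, Cdk1, the kinase that drives entry, had 13.00, 6.81 and 13.4 FPKM in Arid1a_Het, 15.1, 15.8 and 15.3 FPKM in Ctrl and 12.8, 2.34 and 7.797 FPKM in WT. Ctrl libraries were above all others, with narrow spread, and the log2FC was 1.15 against WT (adjusted p 0.123, or 0.049 with the replicate block). Ccnb1, a B-type cyclin partner of CDK1, had 2.75, 1.47 and 2.91 FPKM in Arid1a_Het, 3.68, 3.44 and 3.26 FPKM in Ctrl and 3.35, 0.432 and 1.76 FPKM in WT. WT 1 lay among the Ctrl libraries for Ccnb1, whose log2FC was -0.43 in Arid1a_Het against Ctrl (adjusted p 0.62). The other B-type cyclin Ccnb2 ran from 5.52 FPKM in WT 2 to 33.9 FPKM in Ctrl 2, and the A-type cyclin Ccna2 from 4.07 FPKM in WT 2 to 26.0 FPKM in WT 1.

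Among the mitotic kinases and spindle assembly factors, Aurka, a kinase of the spindle poles, had 9.78, 5.07 and 10.5 FPKM in Arid1a_Het, 11.2, 12.96 and 11.7 FPKM in Ctrl and 10.2, 1.79 and 5.29 FPKM in WT. Plk1, the Polo-like kinase that acts from entry to cytokinesis, had 16.5, 9.16 and 19.4 FPKM in Arid1a_Het, 20.6, 19.5 and 17.7 FPKM in Ctrl and 17.3, 3.01 and 8.98 FPKM in WT. For Aurka all Ctrl libraries were above all others, whereas for Plk1 Arid1a_Het 3 lay among the Ctrl libraries. Log2FC in Ctrl against WT were 1.15 for Aurka and 1.17 for Plk1 (adjusted p 0.117 and 0.132). Tpx2, an activator of Aurora A, Hmmr, a spindle assembly factor, and Nusap1, a microtubule-binding protein, completed this group of 5, whose log2FC ran from 0.76 to 1.17 in Ctrl against WT and from -0.59 to -0.40 in Arid1a_Het against Ctrl.

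The chromosomal passenger complex corrects faulty attachments and later acts at the midzone. Its kinase Aurkb had 8.74, 4.45 and 8.24 FPKM in Arid1a_Het, 10.96, 11.2 and 11.3 FPKM in Ctrl and 11.6, 1.895 and 5.08 FPKM in WT. WT 1 was above every Ctrl library here, and the adjusted p against WT was 0.162. Birc5, its small targeting subunit survivin, had 8.58, 5.74 and 9.22 FPKM in Arid1a_Het, 12.7, 14.1 and 11.3 FPKM in Ctrl and 11.5, 1.999 and 6.11 FPKM in WT. Arid1a_Het lay below Ctrl in all libraries of Birc5, with a log2FC of -0.65 (adjusted p 0.552). The scaffold Incenp, at 3.39 to 25.2 FPKM, was the most abundant of the 4, and Cdca8, which encodes borealin, ran from 1.46 to 7.84 FPKM.

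Centromere and kinetochore genes included both members at an unadjusted p under 0.05 in Arid1a_Het against Ctrl. Cenpa, the histone H3 variant that marks centromeres, had 5.38, 3.600 and 5.35 FPKM in Arid1a_Het, 7.22, 7.88 and 6.85 FPKM in Ctrl and 5.49, 2.64 and 3.77 FPKM in WT. Its groups did not overlap in either comparison with Ctrl, and it had the lowest coefficient of variation of the set within WT. The log2FC was -0.54 in Arid1a_Het against Ctrl (SE 0.23, limma adjusted p = 0.414) and 0.78 in Ctrl against WT (SE 0.23, limma adjusted p = 0.0598, or 0.0301 with the replicate block).

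Cenpf, a large protein of the outer kinetochore, had 2.27, 0.847 and 1.47 FPKM in Arid1a_Het, 4.31, 3.97 and 4.09 FPKM in Ctrl and 4.15, 0.374 and 2.21 FPKM in WT. Arid1a_Het was below Ctrl throughout, with a ratio of means of 0.371 and a log2FC of -1.06 (SE 0.42, limma adjusted p = 0.404). Cenpe, the kinesin that moves chromosomes to the spindle equator, had 5.21, 1.701 and 3.44 FPKM in Arid1a_Het, 7.76, 7.11 and 8.63 FPKM in Ctrl and 6.64, 0.652 and 3.34 FPKM in WT, with a log2FC of -1.07 in Arid1a_Het against Ctrl (adjusted p 0.442). In Ctrl against WT its adjusted p was 0.132, or 0.0389 with the replicate block. For Cenpe too, no Arid1a_Het or WT library reached the lowest Ctrl library. Ndc80, which couples kinetochores to microtubules, had 7.06, 2.94 and 5.74 FPKM in Arid1a_Het, 8.24, 8.78 and 8.69 FPKM in Ctrl and 6.300, 1.07 and 5.495 FPKM in WT, and its partner Nuf2 ran from 0.443 to 3.53 FPKM. The groups did not overlap in 4 of these 5 genes in Ctrl against WT (33.5% of all genes on that side) and in 5 of 5 in Arid1a_Het against Ctrl (22.2% of all genes).

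The spindle checkpoint and its target were represented by 5 genes. Bub1, a checkpoint kinase at kinetochores, had 4.62, 2.18 and 4.27 FPKM in Arid1a_Het, 5.83, 5.68 and 6.93 FPKM in Ctrl and 4.57, 0.663 and 3.36 FPKM in WT. All Ctrl libraries of Bub1 were above all others, with log2FC of 1.06 against WT and -0.65 for Arid1a_Het against Ctrl (adjusted p 0.119 and 0.532). With the replicate block the adjusted p against WT was 0.0374. The checkpoint genes Bub1b, which encodes BubR1, and Ttk, which encodes the kinase Mps1, had log2FC of 0.87 and 0.67 in Ctrl against WT. Cdc20, which activates the anaphase promoting complex, had 25.4, 14.8 and 28.6 FPKM in Arid1a_Het, 34.04, 34.1 and 25.2 FPKM in Ctrl and 29.6, 5.25 and 15.5 FPKM in WT. Ube2c, the ubiquitin-conjugating enzyme of that complex, had 15.6, 9.19 and 16.3 FPKM in Arid1a_Het, 20.5, 21.9 and 18.4 FPKM in Ctrl and 16.01, 2.97 and 8.59 FPKM in WT. For Cdc20 both other groups reached the Ctrl range, whereas for Ube2c all Ctrl libraries were above the rest, with a log2FC of 1.29 against WT (adjusted p 0.0928, or 0.04 with the replicate block).

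Of the spindle and chromosome kinesins, Kif11, the motor that pushes spindle poles apart, had 9.38, 4.42 and 7.57 FPKM in Arid1a_Het, 12.9, 10.8 and 10.04 FPKM in Ctrl and 14.2, 1.53 and 6.905 FPKM in WT. WT 1 held the highest Kif11 level of all libraries, and the log2FC in Ctrl against WT was 0.86 (adjusted p 0.281), the largest adjusted p of the 36 in this comparison. Kif22, a chromokinesin, had 5.303, 3.19 and 5.87 FPKM in Arid1a_Het, 6.67, 8.05 and 5.98 FPKM in Ctrl and 6.82, 1.13 and 4.14 FPKM in WT. Every Arid1a_Het library was below every Ctrl library in all 4 kinesins of this group, as in 22.2% of all genes. The group also holds the chromokinesin Kif4 and the microtubule depolymerase Kif2c, and its log2FC in that comparison ran from -0.69 to -0.47.

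The genes of midzone and cytokinesis were those around Kif23. Kif20a, which carries the passenger complex to the midzone, had 12.1, 6.66 and 10.02 FPKM in Arid1a_Het, 14.2, 14.3 and 11.5 FPKM in Ctrl and 13.9, 2.65 and 8.74 FPKM in WT. Anln, the anillin scaffold of the contractile ring, had 9.16, 3.69 and 8.05 FPKM in Arid1a_Het, 9.61, 9.74 and 12.4 FPKM in Ctrl and 8.499, 1.35 and 4.81 FPKM in WT. WT 1 reached the Ctrl range for Kif20a and not for Anln, which had a log2FC of 1.19 against WT (adjusted p 0.123, or 0.0373 with the replicate block). Racgap1, the partner of Kif23 in centralspindlin, is shown for that role and had 6.79, 3.91 and 7.93 FPKM in Arid1a_Het, 10.1, 9.51 and 7.16 FPKM in Ctrl and 10.8, 1.85 and 5.29 FPKM in WT. Unlike Kif23, Racgap1 was highest in WT 1, and its log2FC in Ctrl against WT was 0.72 (adjusted p 0.274). The difference between both partners was not tested. Prc1, a bundler of midzone microtubules, Ect2, the activator of RhoA at the division plane, and the kinesin Kif20b had log2FC of 1.05, 0.83 and 0.97 in Ctrl against WT, and of -0.60, -0.39 and -0.87 in Arid1a_Het against Ctrl.

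Within the shared library pattern a few genes went their own way. Each gene's log2 FPKM was centred on its own mean over the 9 libraries and on the library mean of the 36 genes, which leaves a relative level. Kif23 had the widest range of relative levels, 1.96, with 0.65, -0.02 and 0.70 in Arid1a_Het libraries, 0.22, 0.24 and 0.90 in Ctrl libraries, and -1.06, -0.76 and -0.89 in WT libraries. All WT libraries were low for Kif23, also WT 1, the WT library where the other mitotic genes were high (mean level without Kif23 3.44).

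Mki67 had relative levels of 0.08, -0.89 and -0.80 in Arid1a_Het libraries, 0.57, 0.10 and 0.47 in Ctrl libraries, and 0.77, -0.82 and 0.53 in WT libraries. It was relatively low in Arid1a_Het 2, Arid1a_Het 3 and WT 2. Cenpf, Cenpe and Kif20b were low in the same 3 libraries, at -0.69 to -0.30 for Cenpf, -0.48 to -0.39 for Cenpe and -0.49 to -0.34 for Kif20b. Cenpa stood apart in WT 2 alone, at 1.22.

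Mki67, Cenpf and Cenpe are among the longest of the set by the lengths that the FPKM steps imply, 10083, 15445 and 8627 bases. Whether these implied lengths match the transcripts present in the glands was not tested. Top2a, with an implied length of 9020 bases, had relative levels of -0.14 and -0.09 in Arid1a_Het 2 and 3. Prc1, with 8231 bases, had -0.16 and 0.04 there. The implied length of Kif20b was 5567 bases. Across the 36 genes the relative level ran against log2 implied length with a Pearson r of -0.65 in Arid1a_Het 2 and -0.55 in Arid1a_Het 3. In the other 7 libraries r was -0.26 to 0.46. These values describe single libraries across genes, which are not independent replicates. The part of RNA quality in them was not tested.

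**Figure D5:**
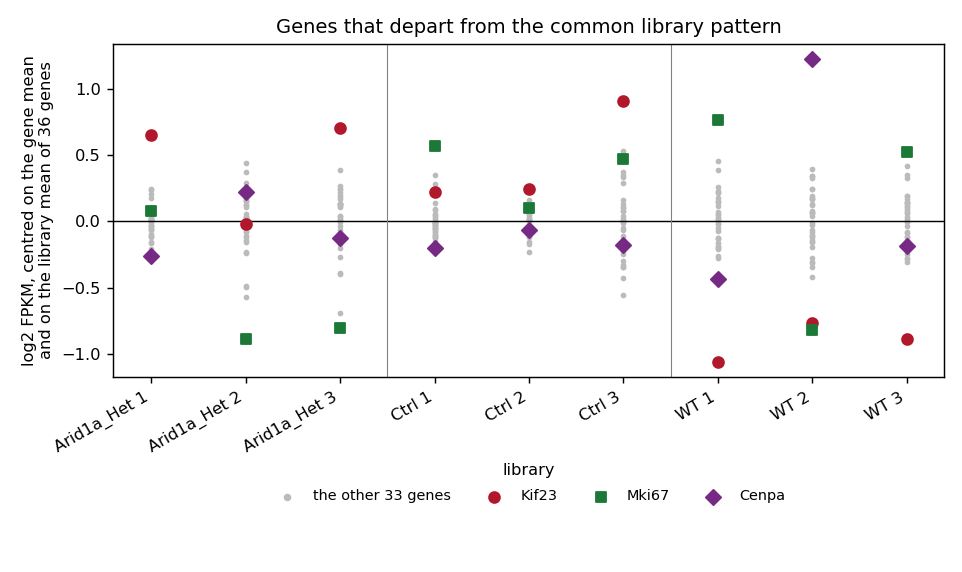
Relative levels (log2 FPKM centred on the gene's mean and on the library mean of the 36 genes) in each library, for Kif23 (red circles), Mki67 (green squares), Cenpa (purple diamonds) and the other 33 genes (grey). Kif23 lay at -1.06 to -0.76 in the 3 WT libraries and at -0.02 to 0.90 in the other 6.

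Reads of some members can overlap those of neighbours. By the GENCODE M21 annotation on GRCm38, Kif23 (chromosome 9, 61915905 to 61946774, minus strand) overlaps no other gene, nor do Cdk1, Ccnb1, Cenpa or Bub1. Protein-coding neighbours overlap 8 members: Cdc20 (Elovl1), Ube2c (Tnnc2), Ccna2 (Exosc9), Nusap1 (Oip5), Kif20a (Cdc23), Kif4 (Pdzd11), Cdca8 (9930104L06Rik) and Prc1 (Rccd1). The kit marks strand, but the sources used here do not say whether reads were counted by strand, so values of such pairs are uncertain to that extent.

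Other genes of the cell cycle, in 8 lists with 213 tested genes, gave 6 calls higher and 1 lower in Ctrl against WT, where 7.01% and 3.04% of all genes were called. The 6 include Hjurp and Cdkn2a, which met the filter only through libraries where they were high. Of the 19 tested mitotic transcription regulators 2 were called higher, the E2F factors E2f5 (log2FC 0.69, adjusted p 0.04) and E2f3 (0.77, adjusted p 0.0452). E2f5 was lost in 9 of 24 alternatives (adjusted p up to 0.137) and E2f3 in 11 of 24 (up to 0.143), both among others without Arid1a_Het 1, any Ctrl library, WT 2 or WT 3. Foxm1, the activator of many members, had 3.74, 2.13 and 3.38 FPKM in Arid1a_Het, 5.53, 4.95 and 5.65 FPKM in Ctrl and 4.65, 0.786 and 2.84 FPKM in WT, with a log2FC of 0.91 in Ctrl against WT (adjusted p 0.127). At the low end Foxm1 followed the members, with WT 2 lowest and Arid1a_Het 2 next.

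Of 32 other centromere and kinetochore genes 2 passed on the higher side in Ctrl against WT, Hjurp, the chaperone that places CENP-A (0.79, adjusted p 0.0251), and the kinetochore subunit Cenpw (0.92, adjusted p 0.0452). Hjurp had 0.83, 0.484 and 0.784 FPKM in Arid1a_Het, 1.65, 1.43 and 1.799 FPKM in Ctrl and 0.734, 0.301 and 0.548 FPKM in WT, with all Ctrl libraries above the rest. It met the filter of 1 FPKM through the Ctrl libraries alone, so its test had to find it high there and supports nothing; it was lost without WT 2 or WT 3 (0.0787 and 0.0672) and with quantile scaling (0.103). Of 39 other spindle, kinesin and cytokinesis genes 1 was called higher, the spindle protein gene Troap (1.19, adjusted p 0.0418). Cenpw and Troap were each lost in 11 of 23 alternatives (adjusted p up to 0.143 and 0.147), among them without any Ctrl library, WT 2 or WT 3, and Cenpw also without Arid1a_Het 1. Condensin and cohesin genes (19 tested), other checkpoint and anaphase genes (24), other mitotic entry genes (20) and DNA replication genes (48) gave 0 calls in either direction in each of the 3 comparisons. At an unadjusted p under 0.05 in Ctrl against WT those 4 lists held 1, 3, 7 and 13 genes on the higher side, where 23.7% of all genes were.

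The CDK inhibitors and antiproliferative genes, 12 tested, held the smallest adjusted p of these lists. Cdkn2a, which encodes the tumour suppressors Ink4a and Arf, had 6.19, 4.13 and 11.1 FPKM in Arid1a_Het, 4.29, 6.54 and 4.99 FPKM in Ctrl and 0.0367, 0.13 and 0 FPKM in WT. It was near or at 0 in every WT library and present in all 6 libraries with the transgenes, through which alone it met the filter. Its log2FC was 2.86 in Arid1a_Het against WT (adjusted p 0.00206) and 2.56 in Ctrl against WT (adjusted p 0.00203). As for Hjurp, those tests had to find Cdkn2a high in the libraries that let it in, and they support nothing. Cdkn1c, another CDK inhibitor, was called lower in Ctrl than in WT (-1.37, adjusted p 0.0239), with 2.397, 4.64 and 3.31 FPKM in Arid1a_Het, 3.63, 3.52 and 1.42 FPKM in Ctrl and 10.03, 6.58 and 9.56 FPKM in WT. That call was lost in 6 of 24 alternatives (adjusted p up to 0.0756), among them without Ctrl 2, Ctrl 3, WT 1 or WT 3. The only call among these lists in Arid1a_Het against WT was Cdkn2a, and Arid1a_Het against Ctrl gave none, with 12 genes lower and 0 higher at an unadjusted p under 0.05, against 10.5% and 1.15% of all genes.

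DNA replication genes served as the nearest comparison. Their mean level was 3.14, 2.60 and 3.29 in Arid1a_Het libraries, 3.29, 3.30 and 3.15 in Ctrl libraries, and 3.05, 2.01 and 2.94 in WT libraries. The order of libraries was similar at the low end, with a smaller gap between WT 2 and the rest. In Arid1a_Het against Ctrl their median log2FC was -0.23, with all genes at -0.16, and 9 of 48 (18.8%) had groups that did not overlap on the lower side, against 22.2% of all genes. In Ctrl against WT their median was 0.61, and 26 of 48 (54.2%) did not overlap on the higher side, with all genes at a median of 0.24 and 33.5%. Whether the mitotic and the replication genes differ in either comparison was not tested.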

How the data were processed

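Poly(A) RNA of stomach corpus glands was sequenced from a stranded library kit, per the labels' protocols. The authors deposited FPKM values per gene for each library, and the submitters' processing notes name STAR 2.4.2a and the GRCm38 (mm10) genome. The counting tool and its strand setting are not given in the sources used here. FPKM steps gave whole reads (within 0.01) for 18423 genes, and these served for depth and for limma voom. Tests used limma 3.58.1 in R 4.3.3 on log2(FPKM + 1), over genes with at least 1 FPKM in at least 3 libraries, with all 9 libraries in one fit and Benjamini-Hochberg adjusted p under 0.05 as the threshold; 11209 genes were tested and 7214 were not. The fit was tested on simulated data. Tables and plots used Python 3.11.15, numpy 2.4.6, pandas 2.3.3 and matplotlib 3.10.9.

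The 36 members and the other lists were chosen with earlier results of these data known. By the rule for named genes, 17 members of set roles have their value in every library, as do called members and those among the 3 largest differences in either direction; of each other list up to 4 genes of lowest p may be named. Same-numbered Ctrl and WT libraries deviated together (correlations 0.207, 0.336 and 0.138, each over 0.1). The numbers were treated as pairs from these data alone, and the blocked fit is given beside the result it changes. Same-numbered Arid1a_Het libraries did not all do so, at -0.15, 0.47 and -0.02 with Ctrl and 0.25, 0.56 and -0.28 with WT. Differently numbered libraries reached 0.52 (Arid1a_Het 1 with WT 3). The blocked values are uncertain to that extent. In all, 24 alternatives were run, 2 of them added after seeing the data. Promoter sequences are from RefSeq on GRCm38.p6 and gene positions from GENCODE M21. No sequence is printed for Kif20a.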

Additional observations from a re-analysis of the deposited data

How the results depend on the processing

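With 3 libraries per group, and WT 2 and Arid1a_Het 2 far from their groups, precision is limited by spread between libraries more than by depth. The cause of each change below was not tested. Of the alternatives for named genes, 1378 kept direction and side of the threshold, 37 newly passed, 58 no longer passed and 7 reversed. Members called higher in Ctrl than in WT (1) numbered 0 with no filter (all genes 3.06%), 9 with the replicate block (16.1%) and 0 without Ctrl 1 and Arid1a_Het 3 (3.94%). They numbered 27 in a 6-library replicate block (17.9%), and 0 to 13 when single libraries were left out (1.88% to 9.56%). In that 6-library block every member's own residual SD (0.336 to 1.17, median 0.76) was above the prior SD (0.255 to 0.288). The fit thus gave these genes less spread than their own values show, so the 27 calls are not taken as a result. Members called higher in Arid1a_Het than in WT (0) numbered 1 with the replicate block (all genes 3.97%) and 1 without WT 2 and Arid1a_Het 2 (3.20%). They numbered 0 to 1 when single libraries were left out (0.702% to 4.76%). For the companion lists called in Ctrl against WT, higher counts (6) became 2 with no filter (all genes 3.06%) and 2 at a minimum of 5 FPKM (6.51%). They became 12 with only both groups in the fit (9.29%), 34 with the replicate block (16.1%) and 3 with limma voom (5.53%). They became 2 without Ctrl 1 and Arid1a_Het 3 (3.94%), 65 in the 6-library block (17.9%), and 1 to 17 when single libraries were left out (1.88% to 9.56%). Those called lower (1) numbered 0 with no filter, 2 with quantile scaling, 3 with the replicate block, 0 without Ctrl 1 and Arid1a_Het 3, 2 in the 6-library block, and 0 to 1 when single libraries were left out. In Arid1a_Het against WT the other lists gave 1 to 2 higher (all genes 0.702% to 4.76%) and 0 to 1 lower when single libraries were left out. The shares of all genes called lower were not counted by setting. Median log2FC of the members then ran from 0.47 to 1.46 in Ctrl against WT, from -0.72 to -0.33 in Arid1a_Het against Ctrl and from -0.16 to 0.82 in Arid1a_Het against WT. The mean levels of Ctrl 1, 2 and 3 were 3.46, 3.45 and 3.36 with a pseudocount of 0.1 and 3.41, 3.42 and 3.41 with median-ratio scaling. Signs reversed in Arid1a_Het against WT for Hjurp with quantile scaling (-0.0101), Mki67 without Arid1a_Het 2 (0.22), WT 1 (0.55) or WT 3 (0.05; lowest -1.28, highest 0.55 over single libraries left out), Cenpf without Arid1a_Het 2 (0.0048) or WT 1 (0.23; lowest -0.72), and Troap without WT 2 (-0.0765; highest 0.45).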
